A study of Homo sapiens and Mus musculus with 19 samples.

Results

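The globin genes make the protein chains of haemoglobin. The human genome carries 5 alpha-like members (HBZ, HBM, HBA2, HBA1 and HBQ1) and 5 beta-like members (HBE1, HBG2, HBG1, HBD and HBB), and all 10 were followed here among the 58721 genes of the count tables. K562 is a human chronic myeloid leukaemia line with erythroid features. RNA that stays bound to chromatin (caRNA, mostly nascent and nuclear transcripts) was sequenced from 4 groups of 3 libraries each. The groups were wild-type (WT) K562 with the control hairpin shControl, WT with shMBD6, TET2 knockout (KO) K562 with shControl and TET2 KO with shMBD6. TET2 is a dioxygenase that oxidises 5-methylcytosine, and MBD6 is a methyl-CpG-binding domain protein that the study tested as a reader of the same mark in RNA.

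Per the study's methods, every line had been transduced with lentivirus and kept under selection, with 1 plasmid for the control hairpin and 1 for MBD6. How many clones stood behind the WT and TET2 KO lines was not given in the sources used here, so a difference of genotype and any other difference between the lines cannot be told apart. The labels call the cells lymphoblasts from bone marrow. All 10 erythroid markers listed for this report had a mean CPM (read counts scaled to the size of each library) of 1 or more in 3 groups and 9 did so in TET2 KO shControl, and the erythroid sum ran from 436 to 864 CPM over the groups. The 8 lymphoid markers summed to 4.55 to 14 CPM.

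In the embryo, red cells use the zeta and epsilon chains. The fetus then uses alpha with gamma, and the adult alpha with beta and some delta. The beta-like genes stand in a row on chromosome 11 in the order in which they are used, downstream of a shared enhancer group, the locus control region, and the alpha-like genes stand on chromosome 16 under enhancers that lie in introns of the neighbouring gene NPRL3. K562 is known for making embryonic and fetal globins and little or no beta-globin.

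Libraries held 52158403 to 102070223 reads counted to genes. The targeted gene was read first. MBD6 stood at 43.3, 42.7 and 38.6 CPM (library sizes scaled by TMM, the trimmed mean of M-values) in WT shControl, 30.9, 25.7 and 27.2 in WT shMBD6, 30.6, 30.8 and 29.4 in TET2 KO shControl, and 30.6, 38.3 and 34.2 in TET2 KO shMBD6. It was lower with shMBD6 in WT cells (log2 change -0.57, SE 0.08, adjusted p = 1.83e-07), but not in TET2 KO cells (0.19, SE 0.08, adjusted p = 0.0574), where the sign goes against the label. Under 7 of 8 alternatives to that fit other than a library left out, MBD6 was called higher in the TET2 KO libraries labelled shMBD6 (0.19 to 0.31 over the 8). With 1 library left out, 1 of 6 fits called it higher (0.10 to 0.26 over the 6). With shControl, MBD6 stood lower in TET2 KO than in WT cells (log2 change -0.46, SE 0.08, adjusted p = 6.49e-06, and -0.63 to -0.46 under the alternatives run), at a mean of 30.3 CPM against 27.9 in WT shMBD6. TET2 KO over WT with shControl therefore compares groups that differ in MBD6 too, and the part of genotype and of MBD6 level in it cannot be told apart. The last group is called the libraries labelled shMBD6, and shControl in TET2 KO is likewise used as the label gives it. TET2 itself gave 118 to 123 CPM in WT shControl and 127 to 131 in TET2 KO shControl (log2 change 0.09, adjusted p = 0.0735, and -0.09 with total gene counts as the scale). It gave 117 to 125 CPM in WT shMBD6 and 91.6 to 101 in the TET2 KO libraries labelled shMBD6. By edgeR's quasi-likelihood test those libraries were lower than TET2 KO shControl (log2 change -0.44, SE 0.04, adjusted p = 7.23e-11). They were also lower than WT shMBD6 (-0.36, SE 0.04, adjusted p = 3.9e-09). Reads over the whole gene do not check an edit that leaves transcription in place. The labels do not say whether replicates were separate cultures, so each p-value measures only the spread between these libraries.

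What could be counted differed greatly between members. HBE1 (chr11:5268345-5505652, minus strand, hg38) and HBG2 (chr11:5253188-5505605, minus strand) had 0 counts in all 12 libraries. In the GENCODE annotation used for positions, both models run far upstream of the globin genes and every base is also covered by another gene of the same strand, 11 genes for HBE1 and 12 for HBG2. Reads over such bases were set aside as ambiguous, which took 4.63% to 5.24% of all read records. The tables hold other versions of both models, whose overlap was not seen. The zeros are therefore not read as a lack of epsilon- or gamma-globin transcription, and their cause was not tested.

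**Figure D1:**
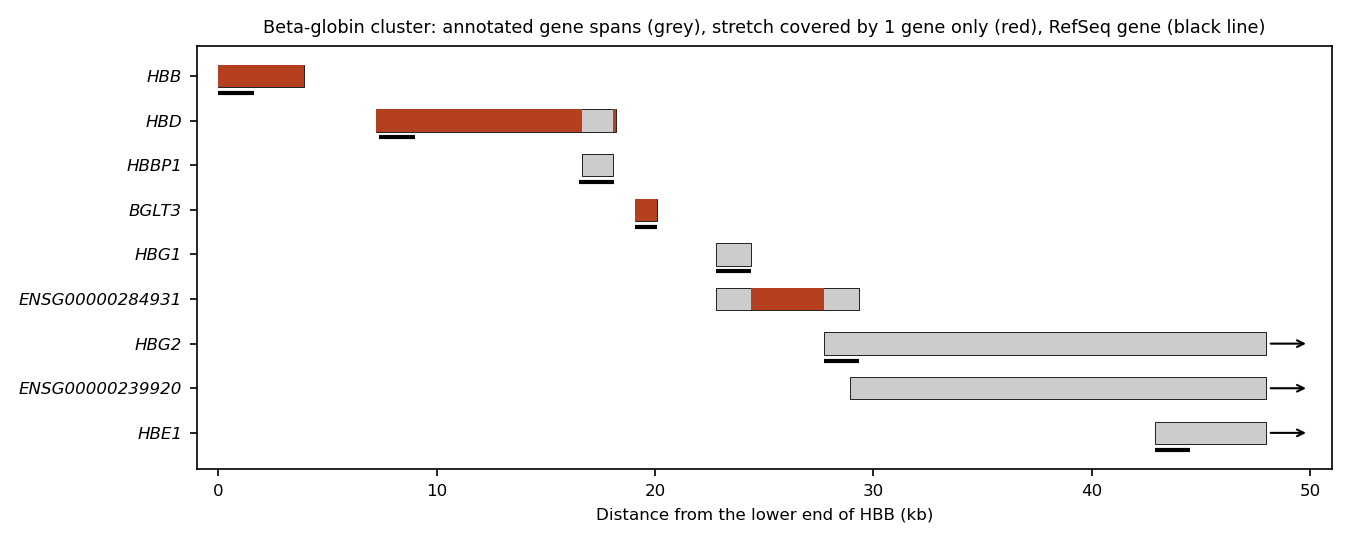
Annotated gene spans of the beta-globin cluster against distance from the lower end of HBB (kb), drawn to scale. Grey bars are whole gene models, red parts are covered by that gene alone, black lines are the RefSeq genes, and arrows mark models that run on past the plot; HBG2 and HBE1 have no red part, while HBB and BGLT3 are red throughout.

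HBG1 (chr11:5248269-5249857, minus strand) encodes the A-gamma chain of fetal haemoglobin. It was counted, with 67 to 711 reads per library, although the release used for positions leaves only 1 of its 1589 bases outside ENSG00000284931. The tables hold an older version of the HBG1 model, which was not used here, so the bases behind its reads are not known. ENSG00000284931 (chr11:5248270-5254783, minus strand) is a readthrough model from HBG2 into HBG1, and 3330 of its bases, the stretch between both gamma genes, belong to it alone. It was chosen after its values were seen, because it is the row that holds gamma-region reads. BGLT3 (chr11:5244554-5245546, minus strand, 993 bases without overlap) is a non-coding RNA gene between HBBP1 and HBG1.

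The remaining beta-like members were free of such overlap for most of their length. HBB (chr11:5225464-5229395, minus strand), the adult beta chain, has all 3932 bases to itself. HBD (chr11:5232678-5243657, minus strand), the minor adult delta chain, keeps 9562 of 10980 bases after the pseudogene HBBP1 is taken out. Its RefSeq gene covers only 1646 of those bases (chr11:5232838-5234483), so most of this model is sequence upstream of that gene. The tables hold another version of the HBD model, so the bases behind its reads are not known.

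On chromosome 16 the order on the plus strand is HBZ, HBM, HBA2, HBA1 and HBQ1. HBA2 (chr16:172876-173710) and HBA1 (chr16:176680-177522) encode the same alpha chain, and HBQ1 (chr16:180459-181179) encodes the theta chain. None of these 3 overlaps another gene. HBZ (chr16:142728-154503), the embryonic zeta chain, and HBM (chr16:153892-166764), the mu chain, have models of 11776 and 12873 bases that overlap each other and reach well beyond their RefSeq genes of 1860 and 787 bases. The tables hold other versions of the HBZ, HBM and HBQ1 models, which were not used here.

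Copies also cost reads. Of the 50-base words in the RefSeq genes, 75.1% of those in HBA2 and 74.3% of those in HBA1 occurred more than once in the alpha cluster, against 0% in HBQ1 and HBM. For HBZ, whose pseudogene HBZP1 lies nearby, the share was 59.9%. For HBG1 and HBG2 it was 52.5% and 52.4% within the beta cluster, and for HBD and HBB 1.31% and 1.35%. Longer words of 100 bases lowered the share to 64.7% in HBA2 and 39.9% in HBG1. Reads that fit more than 1 place were left uncounted and made up 10.1% to 11.2% of the records, so levels of these pairs are underestimates.

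RefSeq promoter windows (GRCh38.p14) from 250 bases before to 50 after the start were at hand for 2 of the 10 members, HBD and HBM. Both are shown because HBD was one of the members that moved, and HBM gives a window of the alpha cluster beside it. The HBD window is chr11:5234434-5234733 on the minus strand and the HBM window chr16:165728-166027 on the plus strand. Capitals mark matches, on either strand, to the CCAAT box, the CACCC box that KLF proteins bind, the GATAA motif of GATA factors, the TATAA box or its variant in HBD, CATAAA, and no matches overlapped.
HBD: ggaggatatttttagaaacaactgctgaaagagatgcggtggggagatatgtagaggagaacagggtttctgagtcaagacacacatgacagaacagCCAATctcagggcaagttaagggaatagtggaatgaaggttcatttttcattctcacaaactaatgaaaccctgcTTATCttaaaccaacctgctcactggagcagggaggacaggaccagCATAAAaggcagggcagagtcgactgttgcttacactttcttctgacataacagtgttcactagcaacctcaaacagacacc
HBM: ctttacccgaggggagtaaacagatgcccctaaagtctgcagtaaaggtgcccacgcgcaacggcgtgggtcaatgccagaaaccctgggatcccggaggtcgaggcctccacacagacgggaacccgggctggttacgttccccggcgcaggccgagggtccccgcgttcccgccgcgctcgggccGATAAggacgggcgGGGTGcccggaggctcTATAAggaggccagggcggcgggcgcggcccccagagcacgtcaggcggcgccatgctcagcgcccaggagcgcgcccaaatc
Counted from the start site, the HBD window held CCAAT at -153, GATAA on the reverse strand at -78 and CATAAA at -32. The HBM window held GATAA at -63, CACCC on the reverse strand at -49 and TATAA at -33. Among 35116 RefSeq promoters of the same length, 34.6% held CCAAT, 59.9% CACCC, 22.7% GATAA, 20.4% TATAA and 10.6% CATAAA. A match is a run of letters and not a shown binding site.

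Per kilobase of unshared sequence, the gamma region had the highest level among the countable genes of both clusters. Lengths come from the release used for positions, and for HBD, HBM, HBZ and HBQ1 the counted version differs, so their levels are approximate. In WT shControl, BGLT3 stood at 7.34 ± 1.27 CPM per kb (SD, n = 3) and ENSG00000284931 at 6.14 ± 0.49, which differ by less than the spread of BGLT3. HBQ1 followed at 0.994 ± 0.502, HBA1 at 0.703 ± 0.376 and HBA2 at 0.701 ± 0.31, and these 3 did not differ beyond their spread. HBA1 and HBA2 lose reads to repeated sequence, which HBQ1 lacks in its cluster, so this is not read as equal transcription. HBD stood lower at 0.276 ± 0.0171. HBM (0.0396 ± 0.006), HBB (0.0166 ± 0.0144) and HBZ (0.00426 ± 0.00538) were the lowest.

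A floor for these levels was taken from 152 olfactory receptor genes, which leukaemia cells do not use. They averaged 0.0259 CPM per kb in WT shControl and 0.0216 to 0.0331 over the 4 groups. HBB was 0.64 to 2.3 times that floor, HBZ 0.102 to 0.367 times and HBM 0.206 to 1.53 times. The group means of HBA1, at 7.79 to 27.1 times, HBA2, at 2.7 to 27.1 times, and HBQ1, at 18.6 to 38.4 times, stood above it in every group, as did those of HBD at 3.38 to 10.7 times. In TET2 KO shControl HBA2 was 0.0893 ± 0.0965 CPM per kb (SD, n = 3) against a floor of 0.0331. HBA1 was 0.168 ± 0.191 against 0.0216 in the TET2 KO libraries labelled shMBD6. These spreads reach below the floor, so these means are not read as clear of it. Models of HBD, HBM, HBZ and HBB are longer than their RefSeq genes, which lowers a mean over the model. With every read placed inside the RefSeq gene, a scale chosen after seeing the data, HBM was 19.9 times the floor in WT shControl, 11.2 times in WT shMBD6 and 2.67 and 3.89 times in the TET2 KO groups, HBD was 19.6 to 61.9 times, HBB 1.56 to 5.63 times and HBZ 0.612 to 2.21 times. Where in the models the reads lie cannot be seen in gene counts, so HBM cannot be placed at or above the floor. HBZ was below the floor over its model and 0.612 to 2.21 times it over the RefSeq gene. Reads lost to repeated sequence were not corrected for, so the low HBZ values are not read as a lack of zeta transcription.

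Of the 10 members, 8 passed the filter on low counts and were tested by edgeR's quasi-likelihood test, HBE1 and HBG2 being the others. A member can pass through 1 high group alone. In TET2 KO over WT with shControl, 3 of the 8 were lower and 0 higher (4 lower and 0 higher at an unadjusted p below 0.05, and 3 and 0 by DESeq2), where 22.3% of the 26023 genes tested were lower, 23.5% higher and 45.8% changed in either direction. The median log2 change of the 8 was -1.33, and that of all genes tested -0.05. With so many genes called throughout, such counts set nothing apart about the family, and the values of each member follow.

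HBG1 was the member with most reads. Its levels were 6.81, 6.82 and 6.27 CPM in WT shControl, 1.71, 1.69 and 1.83 in WT shMBD6, 0.798, 1.24 and 0.935 in TET2 KO shControl, and 4.28, 2.12 and 1.91 in the TET2 KO libraries labelled shMBD6. No pair of groups overlapped, and the share of all genes for which this holds was not counted. WT shControl was highest and TET2 KO shControl lowest, and 1 library of the last group lay far above the other two. HBG1 was lower in TET2 KO than in WT with shControl (log2 change -2.75, SE 0.27, adjusted p = 1.64e-10).

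The same order held along the stretch between the gamma genes. ENSG00000284931 gave 20.1, 22.2 and 19 CPM in WT shControl, 6.09, 6.86 and 6.45 in WT shMBD6, 3.29, 3.41 and 4.74 in TET2 KO shControl, and 7.49, 7.31 and 7.36 in the TET2 KO libraries labelled shMBD6, again with no overlap between groups. The TET2 KO change with shControl was -2.42 (log2, SE 0.14, adjusted p = 1.53e-16). Here the 3 libraries labelled shMBD6 lay close together, unlike those of HBG1.

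BGLT3, transcribed just downstream, read 5.85, 8.24 and 7.76 CPM in WT shControl, 2.17, 2.1 and 2.49 in WT shMBD6, 0.595, 0.975 and 1.07 in TET2 KO shControl, and 2.47, 1.95 and 3.01 in the TET2 KO libraries labelled shMBD6. Only the WT shMBD6 and the TET2 KO labelled shMBD6 groups overlapped. Between genotypes with shControl it was lower in TET2 KO (log2 change -3.06, SE 0.25, adjusted p = 2.55e-12).

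HBD moved over a smaller range. Its levels were 2.49, 2.62 and 2.82 CPM in WT shControl, 1.03, 1.16 and 1.29 in WT shMBD6, 1.25, 0.696 and 1.26 in TET2 KO shControl, and 1.57, 2.01 and 2.02 in the TET2 KO libraries labelled shMBD6. WT shMBD6 and TET2 KO shControl overlapped, and both lay below WT shControl. With shControl, HBD was lower in TET2 KO (log2 change -1.29, SE 0.30, adjusted p = 0.000542).

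**Figure D2:**
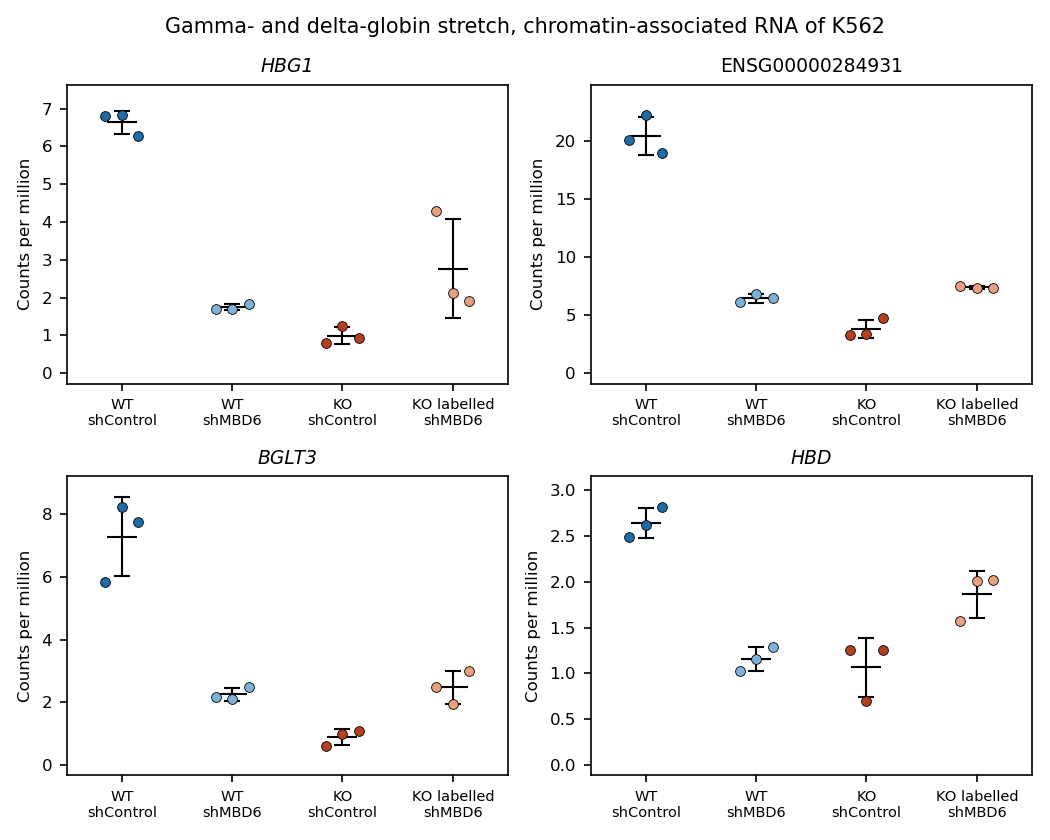
CPM (TMM-scaled) of HBG1, ENSG00000284931, BGLT3 and HBD in each of the 12 libraries, with the mean and SD of each group of 3 as a bar. In all 4 panels WT shControl is highest, and for HBG1 a single TET2 KO library labelled shMBD6 stands at 4.28 against 2.12 and 1.91 for the rest of its group.

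In WT cells, shMBD6 went with 2 of the 8 members lower and 0 higher (also by DESeq2 and at an unadjusted p below 0.05), at a background of 24.7% of tested genes lower and 42.4% changed. HBG1 was lower by edgeR (log2 change -1.92, SE 0.26, adjusted p = 1.47e-07), and so was HBD (-1.19, SE 0.30, adjusted p = 0.0014). ENSG00000284931 (-1.66, SE 0.13, adjusted p = 1.96e-12) and BGLT3 (-1.70, SE 0.23, adjusted p = 2.39e-07) were lower too. The other 6 tested members did not pass, and the median of the 8 was -0.20 against 0.10 for all genes. This comparison and the TET2 KO comparison with shControl share the WT shControl libraries.

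In TET2 KO cells the libraries labelled shMBD6 had 2 of the 8 members higher than shControl and 0 lower (also by DESeq2 and at an unadjusted p below 0.05), where 15.7% of tested genes were higher and 36.4% changed. HBG1 was higher by edgeR (log2 change 1.49, SE 0.27, adjusted p = 2.56e-05), and remained so at 1.04 without its highest library, replicate 1 (adjusted p = 0.000701). HBD was higher by 0.79 (SE 0.30, adjusted p = 0.0366), but not past the threshold without shControl replicate 2 (0.57, adjusted p = 0.203), labelled shMBD6 replicate 2 (0.74, adjusted p = 0.0886) or labelled shMBD6 replicate 3 (0.73, adjusted p = 0.0918). ENSG00000284931 rose by 0.95 (SE 0.14, adjusted p = 6.46e-07) and BGLT3 by 1.50 (SE 0.25, adjusted p = 7.5e-06). MBD6 itself was not lower in these libraries.

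Genotype and hairpin label were then tested together. The interaction, which is the change with the label in TET2 KO minus that in WT, was above 0 for 2 of the 8 members, with 23.9% of tested genes above 0 and 49.4% called either way. It was 3.42 for HBG1 (log2, SE 0.37, adjusted p = 1.56e-09) and 1.98 for HBD (SE 0.42, adjusted p = 0.000191), and 2.61 for ENSG00000284931 (SE 0.19, adjusted p = 1.24e-13) and 3.20 for BGLT3 (SE 0.34, adjusted p = 1.03e-09). For HBA1, HBA2, HBM, HBQ1, HBB and HBZ it did not pass. Calls of HBG1 and HBD in this test, in TET2 KO over WT with shControl and in shMBD6 over shControl in WT held under each alternative run.

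Between genotypes with the shMBD6 label, 2 of the 8 members were higher in TET2 KO and 2 lower, at a background of 30.1% of genes higher, 28.5% lower and 58.6% changed. With DESeq2 or its size factors 0 were higher and 2 lower. HBG1 was higher by 0.66 (SE 0.26, adjusted p = 0.0263), but by 0.21 without labelled shMBD6 replicate 1 (adjusted p = 0.467). It also missed the threshold without WT shMBD6 replicate 1 (adjusted p = 0.063) or 2 (adjusted p = 0.0633), and under 4 of the other 8 alternatives (0.52 to 0.66 over the 8). HBD was higher by 0.69 (SE 0.30, adjusted p = 0.0483) and lost the call without any 1 of 5 libraries, at adjusted p from 0.0631 to 0.144, and under 7 of the other 8 alternatives (0.54 to 0.69 over the 8). ENSG00000284931 (0.19, adjusted p = 0.208) and BGLT3 (0.14, adjusted p = 0.629) did not pass.

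In the alpha cluster HBA2 was lower in TET2 KO in both genotype comparisons, HBA1 passed in 1 of them, and HBM, HBQ1 and HBZ in neither. HBA2 read 0.844, 0.326 and 0.587 CPM in WT shControl, 0.715, 0.37 and 0.639 in WT shMBD6, 0.167, 0.0174 and 0.0395 in TET2 KO shControl, and 0.0457, 0.157 and 0.0519 in the TET2 KO libraries labelled shMBD6. All 6 WT libraries lay above all 6 TET2 KO libraries. The share of all genes that separate in this way was not counted. Between genotypes 45.8% of genes tested were called with shControl and 58.6% with the shMBD6 label, so such separation sets no member apart. HBA2 was lower in TET2 KO with shControl (log2 change -2.89, SE 0.82, adjusted p = 0.00415) and with the shMBD6 label (-2.74, SE 0.82, adjusted p = 0.00482), and both calls held under each alternative run. The hairpin label made no detectable difference in WT (-0.02, SE 0.73, adjusted p = 0.988) or TET2 KO (0.13, SE 0.86, adjusted p = 0.932).

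These are few reads. HBA2 had 154 counts in the 3 WT shControl libraries together and 18 in the 3 TET2 KO shControl libraries, a ratio of 0.149 per unit of library size (exact 95% interval 0.086 to 0.243, counting error only). With the shMBD6 label the counts were 135 and 18, a ratio of 0.14 (0.0805 to 0.23).

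HBA1 gave 0.401, 0.959 and 0.418 CPM in WT shControl, 0.529, 0.582 and 0.554 in WT shMBD6, 0.155, 0.209 and 0.329 in TET2 KO shControl, and 0.0457, 0.328 and 0.0519 in the TET2 KO libraries labelled shMBD6. The 6 WT libraries again lay above the 6 TET2 KO libraries. The TET2 KO change was -1.36 with shControl (log2, SE 0.71, adjusted p = 0.123) and -1.96 with the shMBD6 label (SE 0.74, adjusted p = 0.0239), and only the second passed. Without WT shMBD6 replicate 2 (adjusted p = 0.0528), labelled shMBD6 replicate 1 (adjusted p = 0.0713) or labelled shMBD6 replicate 3 (adjusted p = 0.0895) that call was lost. With the label in TET2 KO cells HBA1 did not pass (-0.70, adjusted p = 0.508), but without labelled shMBD6 replicate 2 it was called lower (-2.20, adjusted p = 0.0464). Since HBA1 and HBA2 share most of their sequence, their counts were also summed. The summed pair was lower in TET2 KO with shControl by 1.93 on the log2 scale (log2 change -1.93, adjusted p = 0.00301). With these summed copies as 1 of them, 2 of 7 settings other than a library left out called the HBA1 row in that comparison.

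HBM gave 0.401, 0.345 and 0.468 CPM in WT shControl, 0.373, 0.194 and 0.27 in WT shMBD6, 0, 0.209 and 0 in TET2 KO shControl, and 0, 0.185 and 0.013 in the TET2 KO libraries labelled shMBD6. Of the 6 TET2 KO libraries, 1 in each group stood within or near the WT range and the others near 0. The log2 change of -2.61 with shControl did not pass (SE 1.22, adjusted p = 0.0802), but was called under 3 of 7 settings other than a library left out (-3.84 to -2.61 over the 7). It passed at -8.01 without TET2 KO shControl replicate 2, the only library of its group with HBM reads, so that value has no bound (adjusted p = 0.00146). Without the same library HBM also passed between the TET2 KO groups (5.43, adjusted p = 0.0455) and in the interaction (5.96, adjusted p = 0.0348), and without labelled shMBD6 replicate 2 it was lower in TET2 KO with that label (-5.05, adjusted p = 0.00934).

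HBQ1 did not separate the groups. Its levels were 0.844, 0.997 and 0.308 CPM in WT shControl, 0.404, 0.617 and 0.724 in WT shMBD6, 0.572, 0.575 and 0.184 in TET2 KO shControl, and 0.396, 0.684 and 0.389 in the TET2 KO libraries labelled shMBD6, with every pair of groups overlapping. The log2 changes ran from -0.69 to 0.15 and none passed.

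Embryonic HBZ and adult HBB had few reads. HBZ had 0 to 19 counts per library and 0 in 3 of the 12. HBB had 0 to 51, and its highest values, 0.529 and 0.317 CPM, were both in WT shMBD6, where the third library read 0.0142. The log2 change of HBB with shMBD6 in WT was 2.09 with an SE of 1.30 and did not pass (adjusted p = 0.206). No change in either gene passed the test.

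**Figure D3:**
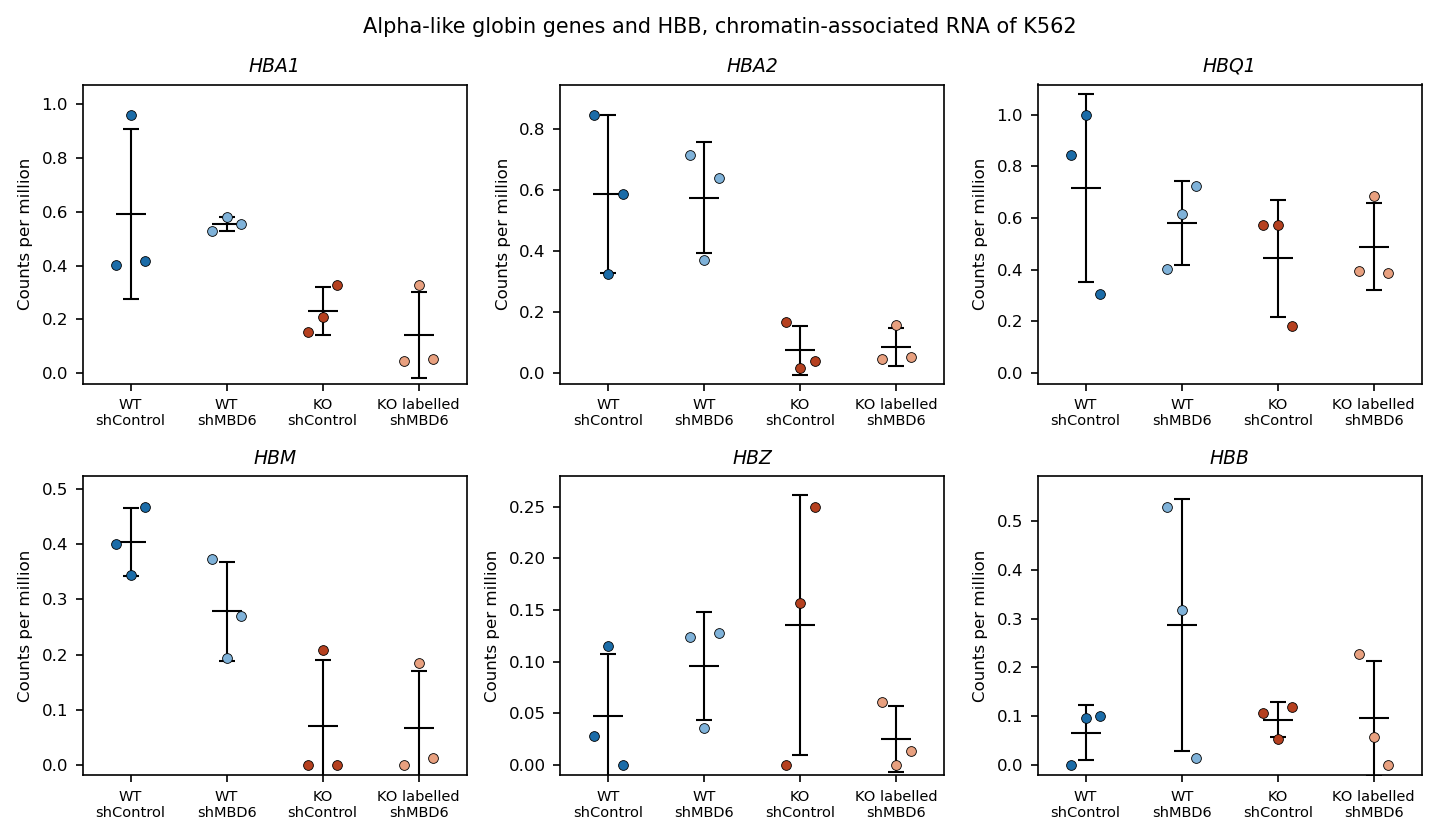
CPM (TMM-scaled) of HBA1, HBA2, HBQ1, HBM, HBZ and HBB in each of the 12 libraries, with the mean and SD of each group of 3 as a bar. For HBA1 and HBA2 the 6 WT libraries lie above the 6 TET2 KO libraries, and for HBQ1, HBZ and HBB the groups overlap.

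**Figure D4:**
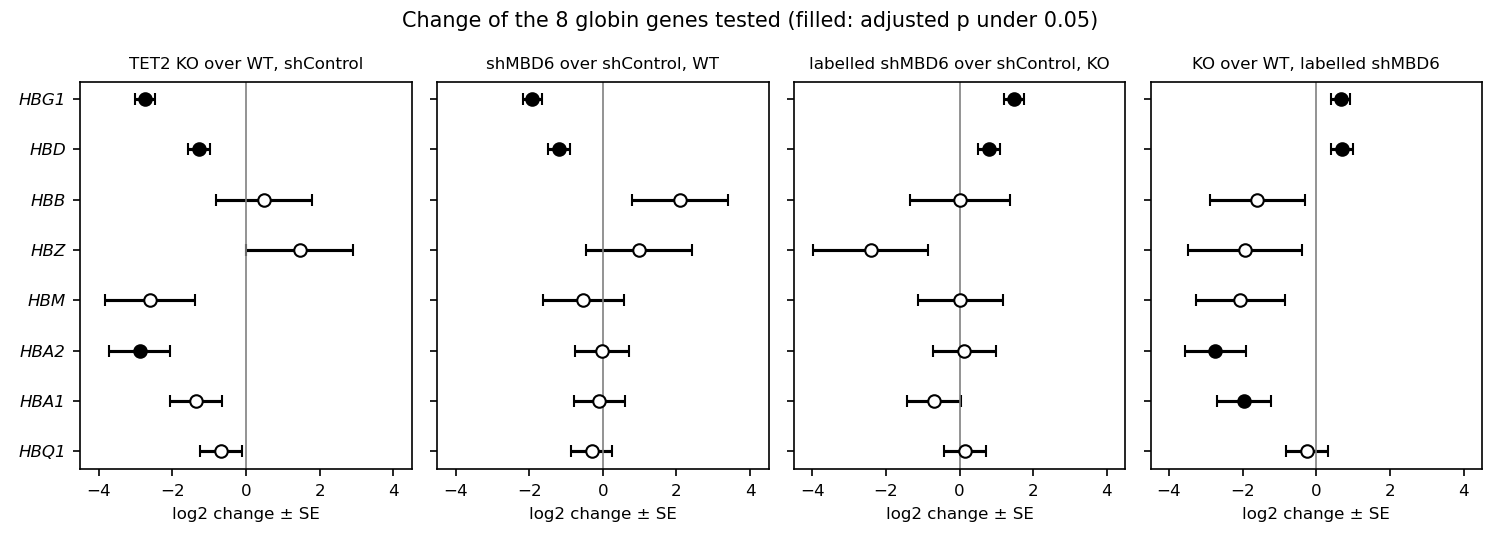
Log2 change with its SE for the 8 globin genes tested, in 4 comparisons from 1 edgeR fit over the 12 libraries. Filled points passed an adjusted p of 0.05: HBG1 and HBD are filled in each panel, left of 0 in the first and second and right of 0 in the others, while HBA2 is filled only in both TET2 KO over WT panels.

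The family sum holds only countable reads, because HBE1 and HBG2 add 0 and the copies lose reads. It also leaves out the gamma-region row ENSG00000284931, which had 9516 counts over the 12 libraries. Summed in this way, globin reads were 0.00121%, 0.00125% and 0.00112% of gene counts in WT shControl. The share was 0.000597%, 0.000541% and 0.000595% in WT shMBD6, 0.000278%, 0.000285% and 0.000281% in TET2 KO shControl, and 0.000659%, 0.000547% and 0.000436% in the TET2 KO libraries labelled shMBD6. TET2 KO shControl was the lowest group, and WT shMBD6 overlapped the libraries labelled shMBD6. The differences were -0.000915 percentage points between genotypes with shControl, -0.000618 for shMBD6 in WT, 0.000266 for the label in TET2 KO and -3.00e-05 between genotypes with that label. The first 3 comparisons gave p = 0.1 in a two-sided exact permutation test (adjusted p = 0.114 over 8 tests) and the last p = 0.8 (adjusted p = 0.8), 0.1 being the smallest value that 3 against 3 libraries allow.

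The balance between the clusters was compared next, and no difference in it passed the test. The log2 ratio of alpha-like to beta-like counts was -2.02 ± 0.31 (SD, n = 3) in WT shControl, -0.62 ± 0.19 in WT shMBD6, -1.19 ± 0.39 in TET2 KO shControl, with -2.67 ± 0.94 in the TET2 KO libraries labelled shMBD6. Beta-like reads exceeded alpha-like reads in all 12 libraries. WT shMBD6 ranged from -0.82 to -0.44, WT shControl from -2.37 to -1.80, TET2 KO shControl from -1.53 to -0.77 and the libraries labelled shMBD6 from -3.47 to -1.63, so in each of the 4 comparisons the groups did not overlap. Each gave p = 0.1 in the two-sided exact permutation test (adjusted p = 0.114), again the smallest possible value. As HBE1 and HBG2 are missing from the beta-like sum, the ratio describes the countable reads and not the chains made.

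Around the beta cluster lie olfactory receptor genes. Of 11 listed neighbours, 4 were tested (OR52A1, OR52A5, OR51M1 and OR51I2). By edgeR 0 passed in each comparison, with 1 at an unadjusted p below 0.05 in TET2 KO over WT with shControl, where DESeq2 called 2 lower, and 0 elsewhere by either measure. OR51B2, OR51B4, OR51B5 and OR51I1, which lie inside the long HBG2 and HBE1 models, had 0 counts in every library. The pseudogenes HBBP1 and HBZP1, which lie wholly inside HBD and HBM, also had 0 counts, and HBAP1, which overlaps no gene, had 1 count in the 12 libraries. BGLT3 was thus the only tested member of the list of pseudogenes and non-coding genes.

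The alpha cluster is flanked by widely expressed genes. In TET2 KO over WT with shControl, 6 of 10 tested neighbours were lower and 1 higher (list median -0.31), where 22.3% of all genes were lower and 23.5% higher. With shMBD6 in WT again 6 were lower and 1 higher (median -0.26), at a background of 24.7% and 17.7%. Among the lower genes, NPRL3, whose introns hold the alpha enhancers, gave 126 to 139 CPM in WT shControl, 112 to 116 in WT shMBD6, 82.9 to 90.7 in TET2 KO shControl, then 82.9 to 88.2 in the TET2 KO libraries labelled shMBD6. NPRL3 was lower in TET2 KO by a log2 change of -0.59 with shControl (SE 0.04, adjusted p = 1.73e-13) and of -0.40 with the shMBD6 label (SE 0.04, adjusted p = 1.63e-09). SNRNP25, a component of the minor spliceosome, changed by -0.47 with shControl (adjusted p = 0.0224), and FAM234A (adjusted p = 0.000331) and POLR3K (adjusted p = 0.0126), an RNA polymerase III subunit, by -0.41 each. The SNRNP25 call was lost without any 1 of 4 libraries, WT shControl replicates 1 and 3 and TET2 KO shControl replicates 1 and 3 (adjusted p from 0.0569 to 0.158), and that of POLR3K without WT shControl replicate 1 (adjusted p = 0.0567) or TET2 KO shControl replicate 2 (adjusted p = 0.0766). In TET2 KO the label came with 1 neighbour higher and 0 lower (also by DESeq2 and at an unadjusted p below 0.05), between genotypes with that label 4 were higher and 2 lower (1 and 3 by DESeq2), and in the interaction 6 were above 0 and 1 below. Over all genes 36.4%, 58.6% and 49.4% were called either way in these 3 tests.

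Globin transcription rests on erythroid transcription factors and, for the switch from gamma to beta, on repressors. All 37 regulators listed were tested. In TET2 KO over WT with shControl 20 were lower and 7 higher (median -0.20), where 22.3% of all genes tested were lower and 23.5% higher. With shMBD6 in WT 27 were lower and 2 higher (median -0.36, 21 and 4 by DESeq2), at a background of 24.7% lower and 17.7% higher. In TET2 KO the libraries labelled shMBD6 had 15 higher and 8 lower (median 0.02), against 15.7% and 20.6% of all genes. Between genotypes with that label 25 were higher and 6 lower (median 0.25, 19 and 8 by DESeq2), against 30.1% and 28.5%. In the interaction 25 were above 0 and 5 below (median 0.48, 21 and 8 by DESeq2), against 23.9% and 25.5%.

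LMO2, KLF1 and GATA1 were lower in TET2 KO with shControl and with shMBD6 in WT, and higher with the label in TET2 KO. Other erythroid factors were not alike, since with shMBD6 in WT TAL1 (-0.07, adjusted p = 0.202) and ZFPM1 (-0.03, adjusted p = 0.571) did not pass, nor did GATA2 in TET2 KO with shControl (0.09, adjusted p = 0.141). LMO2, the bridging subunit of the complex that GATA1 and TAL1 form, stood at 244 to 249 CPM in WT shControl, 89.2 to 94.6 in WT shMBD6, 52 to 56.3 in TET2 KO shControl, then 96.9 to 104 in the TET2 KO libraries labelled shMBD6, with no overlap between groups. Its log2 changes were -2.17 in TET2 KO with shControl (SE 0.04, adjusted p = 6.21e-30), -1.41 for shMBD6 in WT (SE 0.04, adjusted p = 3.31e-24) and 0.87 for the label in TET2 KO (SE 0.04, adjusted p = 2.2e-18). KLF1, the activator that binds CACCC elements of the adult beta-globin promoter, gave 18.1, 19.3 and 18.7 CPM in WT shControl, 11, 8.62 and 9.77 in WT shMBD6, 8.68, 8.15 and 6.99 in TET2 KO shControl, then 12.9, 12.2 and 11.3 in the TET2 KO libraries labelled shMBD6. It changed by -1.24 (adjusted p = 3.28e-11), -0.93 (adjusted p = 1.88e-08) and 0.61 (adjusted p = 4.32e-05) in those 3 comparisons. GATA1, the master erythroid factor, moved less, by -0.63 (adjusted p = 3.15e-10), -0.62 (adjusted p = 8.8e-10) and 0.41 (adjusted p = 3.08e-06).

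Repressors of gamma-globin did not move as 1 group. BCL11A, a main gamma repressor, was scarce, at 0.54, 1.02 and 0.935 CPM in WT shControl, 1.3, 2.54 and 2.4 in WT shMBD6, 0.191, 0.209 and 0.171 in TET2 KO shControl, and 0.213, 0.185 and 0.104 in the TET2 KO libraries labelled shMBD6. Like HBA2, it was lower in all 6 TET2 KO libraries than in all 6 WT libraries, and its log2 change was -2.13 with shControl (SE 0.48, adjusted p = 0.000422) and -3.63 with the shMBD6 label (SE 0.50, adjusted p = 2e-07). With shMBD6 in WT it rose by 1.31 (SE 0.44, adjusted p = 0.0149), the direction opposite to HBG1, and this call was lost without WT shControl replicate 1 (adjusted p = 0.0827), WT shMBD6 replicate 2 (adjusted p = 0.0993) or WT shMBD6 replicate 3 (adjusted p = 0.0851). SOX6, which acts with BCL11A, changed by -1.01 in TET2 KO with shControl (adjusted p = 2.19e-22) and by -0.87 with shMBD6 in WT (adjusted p = 7.73e-20). ZBTB7A, another gamma repressor, changed by -0.20 in both (adjusted p = 0.00778 and 0.01), of which the second was -0.09 with DESeq2 (adjusted p = 0.282). The first lost its call without WT shControl replicate 3 (adjusted p = 0.0506) or TET2 KO shControl replicate 3 (adjusted p = 0.0644), and the second without WT shControl replicate 3 (adjusted p = 0.0562) or WT shMBD6 replicate 2 (adjusted p = 0.0794).

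Haemoglobin also needs a chaperone for free alpha chains, heme and iron. Of 15 such genes 14 were tested. In TET2 KO over WT with shControl 10 were lower and 3 higher (median -0.56), against 22.3% and 23.5% of all genes tested. With shMBD6 in WT 10 were lower and 2 higher (median -0.61), against 24.7% and 17.7%. In TET2 KO the label came with 8 higher and 2 lower (median 0.44), against 15.7% and 20.6%. Between genotypes with that label 10 were higher and 2 lower, against 30.1% and 28.5%, and in the interaction 11 were above 0 and 2 below, against 23.9% and 25.5%.

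AHSP, the chaperone, had 51, 91 and 74 counts in WT shControl, 16, 7 and 13 in WT shMBD6, 0, 1 and 0 in TET2 KO shControl, and 0, 8 and 1 in the TET2 KO libraries labelled shMBD6. The ratio of TET2 KO to WT with shControl was 0.0059 (1 count against 216, exact 95% interval 0.000149 to 0.0332, counting error only), and edgeR called it lower (adjusted p = 3.11e-05). With shMBD6 in WT the ratio was 0.207 (36 counts against 216, 0.141 to 0.295). That change passed at an adjusted p of 0.0406, and missed it when any 1 of the 6 libraries was left out, at adjusted p from 0.0741 to 0.128. Without labelled shMBD6 replicate 1 AHSP was higher with the label in TET2 KO (log2 change 3.34, adjusted p = 0.0454). Without replicate 2 of that group it was lower than in WT shMBD6 (-4.23, adjusted p = 0.00687) and its interaction missed the threshold (2.70, adjusted p = 0.355).

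Heme enzymes moved in both directions. ALAS2, the erythroid enzyme of the committed first step, rose in TET2 KO with shControl by 0.31 (log2, SE 0.07, adjusted p = 0.000452) and with shMBD6 in WT by 0.56 (SE 0.07, adjusted p = 3.31e-08), and SLC25A37, the mitochondrial iron importer, rose with it by 0.18 (adjusted p = 9.23e-06) and 0.34 (adjusted p = 2.98e-11). UROD, UROS and PPOX, enzymes of later steps, fell in both. UROD, at 107 to 118 CPM in WT shControl and 30.6 to 31.3 in TET2 KO shControl, changed by -1.86 (SE 0.05, adjusted p = 1.86e-24), UROS by -1.56 (SE 0.05, adjusted p = 1.04e-22) and PPOX by -1.02 (SE 0.08, adjusted p = 1.64e-12). With shMBD6 in WT the same 3 changed by -1.51 (adjusted p = 2.73e-21), -1.30 (adjusted p = 6.11e-20) and -0.60 (adjusted p = 1.86e-07), and with the label in TET2 KO by 1.33 (adjusted p = 1.01e-19), 0.81 (adjusted p = 1.83e-14) and 1.04 (adjusted p = 2.4e-12). Other enzymes of the pathway differed between these comparisons. ALAS1, the housekeeping form of the first enzyme, was higher in TET2 KO with shControl (0.53, adjusted p = 9.09e-06) and gave -0.05 with shMBD6 in WT (adjusted p = 0.682). ALAD, of the next step, gave 0.14 (adjusted p = 0.422) and was lower with shMBD6 in WT (-0.63, adjusted p = 0.000171), and CPOX was lower in TET2 KO (-0.49, adjusted p = 0.00409) but did not pass with shMBD6 in WT (-0.22, adjusted p = 0.204). TFRC, the transferrin receptor, changed by -0.86 in TET2 KO with shControl (adjusted p = 1.61e-24).

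**Figure D5:**
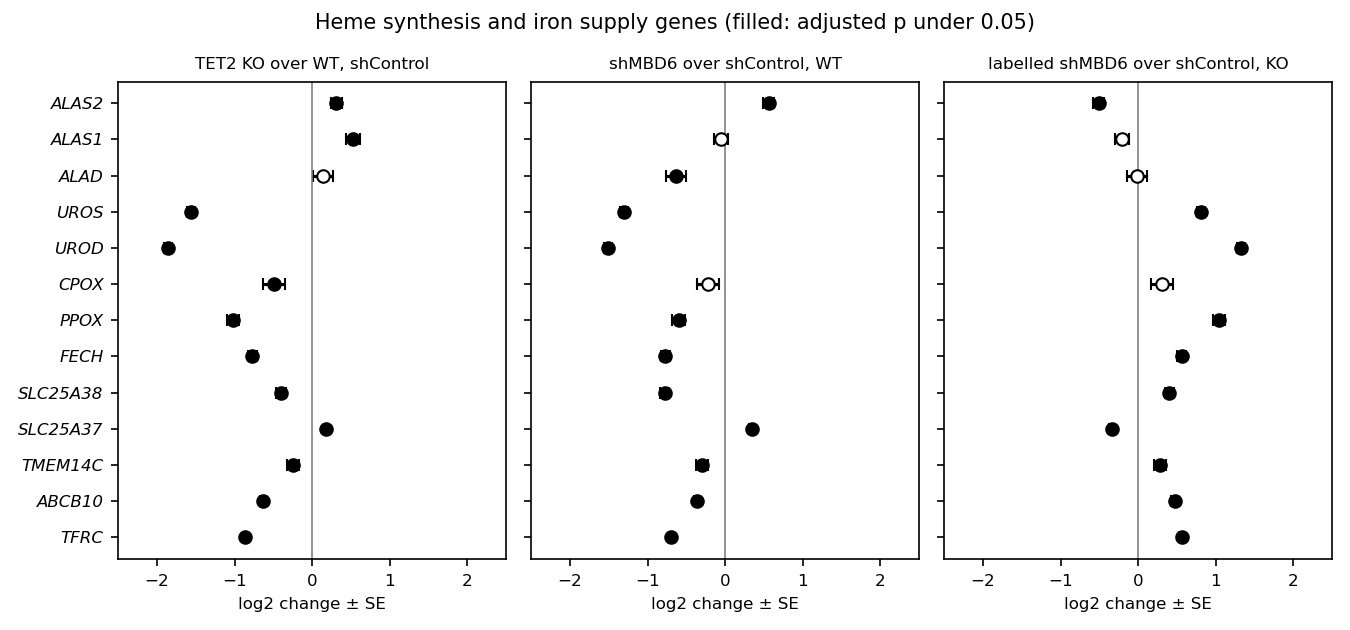
Log2 change with its SE for 13 tested genes of heme synthesis and iron supply in 3 comparisons, AHSP being left out because its TET2 KO shControl libraries held 1 count in all. Filled points passed an adjusted p of 0.05; UROD and UROS lie farthest to the left in the first and second panels, and UROD and PPOX farthest to the right in the third, with ALAS2 and SLC25A37 on the other side.

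Markers of cell type moved beside these genes. The summed erythroid markers, which include GATA1, KLF1 and TAL1 of the regulators, ran from 831 to 864 CPM in WT shControl, 546 to 565 in WT shMBD6, 436 to 453 in TET2 KO shControl, then 620 to 635 in the TET2 KO libraries labelled shMBD6, with WT shControl highest and TET2 KO shControl lowest. Their part in the globin differences was not tested. In bulk RNA, fewer erythroid-like cells and less transcript per cell cannot be told apart.

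Genes outside both clusters were ranked by the Pearson correlation of log2 CPM with the summed beta-like counts over the 12 libraries, among 9286 genes at 10 CPM or more. ENSG00000196826 (r = 0.986), TSPAN14 (0.983), LETM1 (0.980), SLC25A42 (0.980) and PLCD1 (0.980) were the most alike. For the alpha-like sum they were FILIP1L (0.944), PAK5 (0.912), CCNYL2 (0.907), ZNF486 (0.906) and ENSG00000267383 (0.904). All points share the 4 groups and their libraries, so these values describe the ranking only. PAK5, a neuronal kinase, had the largest genotype difference of these, with a log2 change of -6.82 in TET2 KO with shControl (SE 0.20, adjusted p = 1.54e-24) and -7.31 with the shMBD6 label (SE 0.21, adjusted p = 1.75e-24).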

How the data were processed

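The authors aligned caRNA reads to hg38 with HISAT2 2.2.1 after Trimmomatic 0.39 and counted them by GENCODE gene with HTSeq 0.12.4, per the labels and the study's methods. For caRNA the same methods give featureCounts, but each table closes with HTSeq's own summary rows. The deposited values are whole-number counts per gene, not normalized. Rows that name no gene were left out (no feature 13.1% to 16%, ambiguous 4.63% to 5.24%, not unique 10.1% to 11.2% of records). Mouse samples of the series were not used here. Spike-in scaling was not used, so changes are relative to the other genes of a library.

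Of 58676 distinct gene identifiers, 99.2% matched the GENCODE release used for symbols and positions, and 58.9% in the same version. Counts were filtered with filterByExpr (minimum count 10), scaled by TMM and fitted over all 12 libraries with edgeR 4.0.16 (robust quasi-likelihood test, Benjamini-Hochberg over 26023 genes, threshold 0.05). The methods name DESeq2 with a spike-in factor, and DESeq2 1.42.0 was an alternative here. CPM values use the TMM-scaled library size. Sums and ratios were compared by exact permutation in scipy 1.17.1. On simulated counts for TET2 KO over WT with shControl (25048 genes), 63% of 100 genes changed by 1 on the log2 scale and 94.9% of 99 changed by 2 were called, with 0.0241% of unchanged genes. The simulation assumed the spread and changed few genes, whereas 45.8% were called in the data. Genes with as few reads as HBZ were not among those changed, so these rates do not carry over to the data.

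The members and lists were chosen with earlier results of these data known. Named genes were the 10 globins, MBD6 and TET2, up to 4 called genes per list with the largest change in TET2 KO over WT with shControl, AHSP, GATA1, KLF1, BCL11A and ZBTB7A, and the 5 genes most like each cluster sum. A gene of the heme list is not reported here. ENSG00000284931, ALAS2, SLC25A37 and TFRC were added after their values were seen. TAL1, ZFPM1, GATA2, ALAS1, ALAD and CPOX lie outside the naming rule as well and were not set in advance. Replicates differed by more than counting noise in each group (chi-square per degree of freedom 5.3 to 14.9). Intervals cover counting error only. Alternatives were other size factors, filters, DESeq2, a replicate block, summed copies, only the groups compared, other denominators, and each library left out.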

Additional observations from a re-analysis of the deposited data

Results flagged for a closer look

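The change with the hairpin label differed between TET2 KO and WT cells for several named genes, by the interaction term of the edgeR fit. Among globins it was 3.42 for HBG1 and 1.98 for HBD (log2). In the gamma region it was 2.61 for ENSG00000284931 and 3.20 for BGLT3. The alpha-globin chaperone AHSP gave 5.05, on 1 count in TET2 KO shControl. Of the regulators, LMO2 gave 2.29, KLF1 1.54, SOX6 1.52, GATA1 1.03 and ZBTB7A 0.22. The heme enzymes UROD, UROS and PPOX gave 2.85, 2.11 and 1.64. Beside the alpha cluster, FAM234A gave 1.23, SNRNP25 0.88, POLR3K 0.68 and NPRL3 0.19. The interactions of ZBTB7A and NPRL3 missed the threshold with DESeq2 (adjusted p = 0.288 and 0.254). MB, the muscle oxygen store myoglobin, gave -2.32. The targeted genes themselves gave 0.75 for MBD6 and -0.45 for TET2. Groups of 3 were too small for the test of single outlying libraries.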

How the results depend on the processing

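Few reads limit HBZ, HBB and HBM, and 59.9% of the 50-base words of HBZ are repeated. The epsilon to gamma ratio was not run because HBE1 and HBG2 are at 0, nor the zeta to alpha ratio because HBZ is at 0 in 3 libraries. The median change of all genes shifted from -0.05 to -0.23 in TET2 KO over WT with shControl with total gene counts, from 0.10 to 0.21 for shMBD6 in WT with DESeq2 factors and from -0.03 to -0.18 between genotypes with the label. Of 284 single-gene values of globins under settings other than a library left out, 250 kept direction and side of the threshold, 14 lost a call and 6 gained one. For other named genes it was 490 of 521.

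Globins called numbered 3 in TET2 KO over WT with shControl, and 5 with copies summed (HBG2 taking the value of the pair) or with only the groups compared. In TET2 KO with the label they numbered 2, and 1 with no filter or only the groups compared. Between genotypes with the label they numbered 4, and 2 with DESeq2 size factors, total gene counts, the stricter filter or the DESeq2 test, and 1 with only the groups compared. Without 1 library the counts ran from 3 to 4, 2 to 2, 1 to 2, 1 to 4 and 2 to 3 in TET2 KO over WT with shControl, shMBD6 in WT, the label in TET2 KO, genotypes with the label and the interaction.

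Uncalled values near 0 turned. For shMBD6 in WT, HBA1 (-0.10) became 0.01 with DESeq2 factors or test, 0.00 with no filter and 0.08 with the replicate block. HBA2 (-0.02) became 0.09 with DESeq2 factors, DESeq2 test or no filter, 0.08 with total gene counts, 0.05 with the stricter filter and 0.02 with the block. With the label in TET2 KO, HBM (0.02) became -0.01 with DESeq2, HBB (0.01) -0.53 with the block, and HBA2 (0.13) -0.44 with copies summed, where its interaction (0.14) was -0.38. With total gene counts TET2 between genotypes with shControl was -0.09 and BGLT3 between genotypes with the label -0.01. The cause was not tested.

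Without 1 library, turned values ranged as follows. In shMBD6 over shControl in WT, HBA1 ran from -0.32 to 0.43, HBA2 from -0.31 to 0.33 and HBQ1 from -0.67 to 0.01. With the label in TET2 KO, HBA2 ran from -0.65 to 1.48, HBB from -1.69 to 0.60, HBM from -2.97 to 5.43 and HBQ1 from -0.23 to 0.38. In TET2 KO over WT with shControl, HBB ran from -0.06 to 0.88, and between genotypes with the label BGLT3 from -0.02 to 0.29. Interactions ran from -0.63 to 1.50 for HBA2 and from -2.43 to 5.96 for HBM. The globin share between genotypes with the label ran from -8.59e-05 to 2.58e-05 percentage points.

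Pairing by replicate number was not seen, since 0 of 18 correlations between same-numbered libraries passed 0.1 (-0.012 to 0.062). Libraries of different number were not compared in this way, so the values do not settle whether the numbers pair libraries. With the replicate block HBM was called between genotypes with shControl (-3.84, adjusted p = 0.02) and with the label (-3.24, adjusted p = 0.0367), the MBD6 rise in TET2 KO passed (0.19, adjusted p = 0.0465), as did TET2 (0.09, adjusted p = 0.0413), and HBD between genotypes with the label (0.69, adjusted p = 0.0549), AHSP for shMBD6 in WT (-2.18, adjusted p = 0.0584) and MB (1.45, adjusted p = 0.0501) no longer did. Globins called were 4, 2, 2, 4 and 2 in the 5 tests.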

Other observations

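Globin-fold genes outside both clusters were read beside the family. Of 4 listed genes, CYGB, MB and ADGB were tested. In TET2 KO over WT with shControl 1 was higher and 1 lower, with shMBD6 in WT 2 were higher, in TET2 KO with the label 1 was lower, and between genotypes with the label and in the interaction 2 were lower. Over all genes tested 45.8%, 42.4%, 36.4%, 58.6% and 49.4% were called either way in these 5 tests. ADGB, a testis-enriched globin-like gene, was lower in TET2 KO with shControl (log2 change -3.14, SE 0.50, adjusted p = 3.04e-06) and with the shMBD6 label (-4.42, SE 0.51, adjusted p = 5.71e-09), the same side as HBA2. MB rose by 1.46 in TET2 KO with shControl (SE 0.57, adjusted p = 0.037) and by 1.68 with shMBD6 in WT (SE 0.57, adjusted p = 0.0175), where HBG1 fell. Leaving out single libraries took the first MB call away for 5 of 6 libraries and the second for 4 of 6.

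Markers of other blood lineages were also summed. The 8 myeloid markers ran from 41.9 to 45.6 CPM in WT shControl, 62.1 to 65 in WT shMBD6, 77.4 to 83.6 in TET2 KO shControl, then 72.2 to 78.2 in the libraries labelled shMBD6, lowest in WT shControl and highest in TET2 KO shControl. The 8 megakaryocyte markers ran from 49.7 to 58.3 CPM in WT shControl, 41 to 46.1 in WT shMBD6, 29.6 to 35.2 in TET2 KO shControl, then 28.6 to 32.9 in the libraries labelled shMBD6. Only 1 of the 8 had a mean of 1 CPM or more in TET2 KO shControl, and 2 in each other group. The sum thus rests on few genes. With the label in TET2 KO, TUBB1 was higher (log2 change 2.97) and ITGA2B lower (-0.32). In both TET2 KO groups 4 of the 8 megakaryocyte markers were at 0, against 3 in WT shControl and 1 in WT shMBD6.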
